A study of Mus musculus with 4 samples.

Results

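The experiment set an antibody against the UV-induced 6-4 photoproduct (6-4PP) on an irradiated and on a non-irradiated array of designed DNA probes. These were 2 of the 4 arrays of the study, chosen by the antibody and by the condition in the name of the deposited table and in the array condition field. The other 2 arrays carried an antibody against cyclobutane pyrimidine dimers and were not used here. The source in the labels is a mouse anti-6-4PP antibody at a dilution of 1 in 80, read through an Alexa label, on both arrays. Mouse is the labelled organism, although every probe is synthetic DNA and none is named for a mouse gene. The non-UV group was 1 array and the UV group was 1 array. The titles of both arrays give the opposite condition from the condition field, and the field was followed. The UV dose, the scanner settings and the way double strands were made are not in the labels.

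An array had 62976 spots, and 61260 of them were assigned a sequence. These made up 5480 distinct sequences under 6126 names, and all 5480 were used. The sequences had 59 or 60 bases and were named for the factors MITF, TBP or p53, DNA-binding regulators of transcription whose sites they were built around. In 21 libraries a window of 4 neighbouring bases ran through all combinations of bases. In 6 three-position libraries TT, TC, CT, CC or the unchanged backbone (N in the probe name) stood at each of 3 positions, in all combinations, either on the listed strand or, as AA, GA, AG or GG, on the opposite strand.

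UV light joins neighbouring pyrimidines of 1 DNA strand. In a 6-4 photoproduct the bond runs from the C6 position of the 5′ pyrimidine to the C4 position of the 3′ pyrimidine, which distorts the helix more than a cyclobutane dimer does. 6-4 photoproducts are less frequent than cyclobutane dimers in irradiated DNA, are known to arise readily at TC steps, and are removed from mammalian cells by nucleotide excision repair. A dipyrimidine, TT, TC, CT or CC, is the smallest site at which such a lesion can form. An antibody signal on an array depends on how many lesions formed and on how well the antibody bound each, and this assay does not separate them.

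The library backbones alternate purines and pyrimidines and hold no dipyrimidine on either strand outside the 10 bases shared at the 3′ end. The probes below show how a dipyrimidine was put into such a backbone, since the comparisons of type, position and number rest on them. They are printed 5′ to 3′ as the listed strand, with placed bases in capitals, and GA marks a TC step on the opposite strand.
MITF_P6_N&P12_N&P18_N: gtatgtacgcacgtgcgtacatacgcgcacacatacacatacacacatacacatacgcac
MITF_P6_N&P12_TT&P18_N: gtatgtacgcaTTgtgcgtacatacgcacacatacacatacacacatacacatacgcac
MITF_P6_N&P12_TC&P18_N: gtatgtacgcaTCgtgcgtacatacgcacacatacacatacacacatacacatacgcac
MITF_P6_N&P12_CT&P18_N: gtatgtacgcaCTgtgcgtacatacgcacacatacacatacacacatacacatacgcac
MITF_P6_N&P12_CC&P18_N: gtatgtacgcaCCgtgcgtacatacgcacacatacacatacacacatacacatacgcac
MITF_P6_TC&P12_TC&P18_TC: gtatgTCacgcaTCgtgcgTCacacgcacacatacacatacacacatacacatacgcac
MITF_P7_N&P13_GA&P_19_N: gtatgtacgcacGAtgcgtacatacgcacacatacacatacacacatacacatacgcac
TBP_P6_TC&P12_TC&P18_TC: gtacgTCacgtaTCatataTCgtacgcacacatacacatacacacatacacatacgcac
p53_P6_N&P12_N&P18_N: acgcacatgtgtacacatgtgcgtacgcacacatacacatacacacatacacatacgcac
p53_P6_N&P12_TC&P18_N: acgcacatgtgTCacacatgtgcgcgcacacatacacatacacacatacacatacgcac
P53_P7_GA&P13_GA&P_19_GA: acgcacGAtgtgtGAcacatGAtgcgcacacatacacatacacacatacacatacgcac

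The next probes are pairs that differ at a single base directly 5′ of a lone TC or TT step. They are shown because the signal differed most, or least, between A and G at that place. Capitals mark the step and the exchanged base as they lie in the listed strand. The step is on the opposite strand in all pairs but the last, so that it reads GA or AA, and T stands for a 5′ A and C for a 5′ G.
MITF_sebox_59_ATAC: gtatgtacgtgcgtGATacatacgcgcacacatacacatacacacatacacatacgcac
MITF_sebox_59_ACAC: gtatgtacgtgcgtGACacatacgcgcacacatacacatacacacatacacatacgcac
MITF_Ex_sebox_59_GATG: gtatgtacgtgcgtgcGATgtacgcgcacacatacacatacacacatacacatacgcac
MITF_Ex_sebox_59_GACG: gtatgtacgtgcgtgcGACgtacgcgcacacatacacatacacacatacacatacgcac
TBP_E59_GATA: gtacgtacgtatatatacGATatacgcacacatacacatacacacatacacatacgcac
TBP_E59_GACA: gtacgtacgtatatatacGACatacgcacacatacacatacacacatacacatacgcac
MITF_sebox_59_TAAT: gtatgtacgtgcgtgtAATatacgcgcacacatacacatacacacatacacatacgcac
MITF_sebox_59_TAAC: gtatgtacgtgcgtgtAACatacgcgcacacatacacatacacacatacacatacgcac
TBP_59_TATT: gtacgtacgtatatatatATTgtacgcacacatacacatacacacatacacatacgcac
TBP_59_TGTT: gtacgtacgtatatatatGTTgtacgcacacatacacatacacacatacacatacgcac

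The last set holds four-base windows, in capitals, at the extremes of the data, except for the TBP probe. The first had the smallest difference between the arrays, and the next 2 carry the same window AGCT in different libraries. The TBP probe has the run CTC across the end of its window and lay nearest the median of such probes. The last had the largest difference below the upper end of the intensity scale.
MITF_ebox_60_GTAA: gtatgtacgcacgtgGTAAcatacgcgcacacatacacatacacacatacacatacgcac
MITF_Ex_ebox_60_AGCT: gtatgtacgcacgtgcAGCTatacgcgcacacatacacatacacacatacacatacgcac
p53_60_AGCT: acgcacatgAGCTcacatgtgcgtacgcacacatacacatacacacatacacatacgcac
TBP_60_TGCT: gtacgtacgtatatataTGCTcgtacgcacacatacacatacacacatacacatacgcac
p53_60_AATT: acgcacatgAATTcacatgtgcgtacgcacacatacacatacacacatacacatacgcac

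The first comparison asked how far apart the irradiated and the non-irradiated array lay. Each sequence was given the median intensity of its unflagged replicate spots, and the difference was log2 of the UV value minus log2 of the non-UV value. Every one of the 5480 sequences (100%) was brighter on the UV array. The smallest ratio was 24.6, and the median difference of 8.21 corresponds to 296-fold. The lowest sequence on the UV array, at 2635, was 6.17 times as bright as the highest on the non-UV array, at 427, so the arrays did not overlap. With 1 array a group this difference has no replicate check and no p-value, and it includes any difference in scanner gain. All SDs and standard errors below come from replicate spots and cover the spread within these 2 arrays only. The standard errors are those of a mean of log2 spot values, although the difference was taken from medians. Comparisons with 2 standard errors are therefore approximate.

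The differences ran from 4.62 to at least 10.85, with quartiles of 7.50 and 8.92. Their order followed the UV array. The difference had a Spearman rho of 0.96 with the UV intensity and of -0.03 with the non-UV intensity over the 5480 sequences, as a description of values that share an array. The SD over sequences was 1.01, against a median standard error of 0.10 for the difference of a single sequence. The non-UV array was flat by comparison, with quartiles of 50.5 and 61.

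Sequences without a dipyrimidine set the reference. There were 160 of them, all of 60 bases, and their median difference was 6.54, or 93.3-fold, with a range of 5.77 to 7.69. Their median intensity was 4893 on the UV array and 53 on the non-UV array. A sequence was counted as raised when its difference was at least 2-fold, or 1 on the log2 scale, above that reference, at 7.54 or more. By this rule 4026 of the 5480 sequences (73.5%) were raised, and 2047 (37.4%) were at least 4-fold above the reference. MITF_sebox_60_TTAC, with UV and non-UV values of 11940 ± 1403 and 64 ± 7.96 (SD, 10 spots each), lay just inside the 2-fold threshold. TBP_MUT_59_CGTG, at 9872 ± 2437 (SD, 20 spots) and 53 ± 7.52 (SD, 19 spots), lay just outside it, and both had a difference of 7.54 after rounding.

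Intensities ended at 65535, the highest value a spot could take. On the UV array 3516 library spots (5.78%) and the medians of 309 sequences stood there, and their differences are lower bounds. NP_MITF_ebox_60_ATAT, at 65454 ± 3248 (SD, 10 spots), and MITF_ebox_60_TAAT, at 65477 ± 5515 (SD, 10 spots), were the highest medians below this ceiling. A TC step was present in 288 of the 309 sequences at the ceiling and absent from 21, while 53.6% of all 5480 sequences held one.

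The number of dipyrimidines, counted on both strands, was then set against the difference. The median difference was 6.54 with 0 dipyrimidines, 7.13 with 1, 7.94 with 2, 8.41 with 3, 8.95 with 4 and 8.99 with 5. The share of raised sequences went from 3.75% of 160 without a dipyrimidine to 29.8% of 584 with 1, 69.4% of 2080 with 2, 84.1% of 1536 with 3, 99.1% of 992 with 4 and 100% of 128 with 5. Probes of 60 bases hold even counts and probes of 59 bases odd counts, so neighbouring classes differ in length as well. The least-squares rise was 0.53 per dipyrimidine over all sequences, 0.52 within the 2248 probes of 59 bases and 0.54 within the 3232 of 60 bases. Counting the dipyrimidines of the listed strand alone lowered it to 0.28.

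Sequences with a single dipyrimidine showed how unlike the types were. TC gave a median difference of 8.20 over 122 sequences, TT 7.53 over 154, CC 7.09 over 138 and CT 6.64 over 170. Against the reference these medians were 1.65 higher for TC, 0.99 for TT, 0.54 for CC and 0.10 for CT. Raised sequences were 65.6% of those with TC, 49.4% with TT, 12.3% with CC and 0.588% with CT, beside 73.5% of all sequences, most of which hold several dipyrimidines. At 4-fold the shares were 32.8% for TC and 0.649% for TT, with 0 sequences for CC and CT. A single CT, with the bases of TC in the other order, thus stood near the reference. All single-dipyrimidine probes have 59 bases and the reference has 60, so these steps above the reference include the missing base. The factors are also mixed differently. The reference pools 48 p53 sequences, with a median of 7.18, with 64 MITF sequences at 6.42 and 48 TBP sequences at 6.37. Single-dipyrimidine p53 probes come only from the three-position libraries. The part of this mix in the steps above the reference was not separated.

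The middle position of the MITF backbone showed the same order on probes of equal length. The backbone without a dipyrimidine had 4388 ± 1349 (SD, 40 spots) on the UV array and 55 ± 7.06 (SD, 39 spots) on the non-UV array, a difference of 6.32. With TC in the middle the values were 18788 ± 3099 and 54 ± 5.98 (SD, 10 spots each), and the difference was 8.44 ± 0.09 (SE). With TT they were 12300 ± 5450 (SD, 10 spots) and 52 ± 5.96 (SD, 9 spots), for a difference of 7.89 ± 0.16 (SE). CC gave 6863 ± 3176 (SD, 9 spots) and 58 ± 7.10 (SD, 10 spots), a difference of 6.89 ± 0.18 (SE). CT gave 5524 ± 1166 and 52 ± 4.33 (SD, 10 spots each), a difference of 6.73 ± 0.12 (SE). The non-UV values of the 4 probes were alike, and the order of the differences was that of the UV array. CC and CT differed by less than 2 combined standard errors, while TT and TC stood above both.

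The same middle position in the other backbones gave a different picture for p53. In the TBP backbone the UV intensities were 23646 ± 6760 with TC (SD, 10 spots), 15215 ± 1650 with TT (SD, 9 spots), 8709 ± 630 with CC and 5523 ± 2259 with CT (SD, 10 spots each). In the p53 backbone they were 8227 ± 5393 with TC, 8755 ± 2511 with TT, 5616 ± 1772 with CC and 5701 ± 1626 with CT (SD, 10 spots each), and the backbone itself stood at 5875 ± 2003 (SD, 40 spots). TC minus TT was -0.19 ± 0.29 (SE) in the difference at this place of the p53 backbone, which is within the spot error. On the opposite strand of the same backbone it was 0.40 ± 0.18 (SE) at the middle place. In the p53 backbone the middle step follows G on either strand, whereas in the MITF and TBP backbones it follows A.

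The 4 types were compared within fixed surroundings by sets of 4 probes that were identical except for the dipyrimidine itself. There were 80 such sets among the four-base libraries of 59 bases, which come from the MITF and TBP libraries. TC was the highest of the 4 in 79 sets and CT the lowest in 71. The full order TC, TT, CC, CT held in 67. The median of TC minus TT was 0.71, of TT minus CC 0.43, of CC minus CT 0.42 and of TC minus CT 1.57.

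This order was wider where the dipyrimidine followed A. In the 48 sets with a 5′ A, TC exceeded TT, TT exceeded CC and CC exceeded CT in all 48. In the 32 sets with a 5′ G the counts were 31, 27 and 24. The median of TC minus TT was 0.81 after A and 0.36 after G, and that of TC minus CT was 1.87 after A and 0.82 after G. After G, TC minus TT went down to -0.02, and after A it was never below 0.47.

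Single-dipyrimidine sequences fell into 16 contexts of 4 bases, from a purine before the step to a purine after it. ATCA had the highest median difference, 8.74 over 38 sequences, followed by ATCG at 8.34 over 36. GTCA had 7.36 over 30 and GTCG 7.12 over 18. The lowest ATCG sequence, at 8.0, was just below the highest GTCA sequence, at 8.05, so TC after A and TC after G overlapped at their edges. That GTCA sequence was the p53 probe P53_P7_N&P13_GA&P_19_N, with a low non-UV value of 37.5, so the overlap is between probes of different backbones. All 38 sequences with ATCA and all 36 with ATCG were raised, against 6 of the 30 with GTCA and 0 of the 18 with GTCG.

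TT followed the same pattern at a lower level. ATTA had a median of 8.12 over 54 sequences, ATTG 7.56 over 36, GTTA 7.06 over 46 and GTTG 6.74 over 18. The median of ATTA was thus above those of GTCA and GTCG. For CC the medians were 7.47 for ACCA, 7.21 for ACCG, 6.61 for GCCA and 6.46 for GCCG. For CT they were 6.87 for ACTA, 6.70 for ACTG, 6.47 for GCTA and 6.44 for GCTG. After G, the medians of CC and CT ran from -0.11 to 0.07 about the reference, in which the factors are pooled.

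Pairs of sequences that differ only in the base 5′ of a lone dipyrimidine measured this within fixed surroundings. With TC, A exceeded G in all 32 pairs, by a median of 1.41 and a range of 0.57 to 1.79. With TT, A exceeded G in all 48 pairs, by 0.99 (0.55 to 1.61). With CC it did so in all 32, by 0.65 (0.10 to 1.08). With CT it did so in 38 of 48 pairs, by 0.25 (-0.33 to 1.12). For TC and TT the change was larger than 2 standard errors in all 32 and all 48 pairs, for CC in 28 of 32 and for CT in 18 of 48. The MITF and TBP libraries gave medians of 1.41 and 1.40 for TC, and 0.99 and 1.01 for TT. Listed and opposite strand gave 1.42 and 1.41 for TC, and 0.99 and 1.01 for TT. No p53 library had 59 bases with a four-base window, so none entered these pairs.

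The extremes of these pairs are among the sequences printed above. MITF_sebox_59_ATAC, with A before the TC step, had 23648 on the UV array, and MITF_sebox_59_ACAC, with G there, had 6846, while both had 64 on the non-UV array. That pair differed by 1.79 ± 0.22 (SE). The smallest TC pair was MITF_Ex_sebox_59_GATG at 15839 and MITF_Ex_sebox_59_GACG at 10261, with non-UV values of 61.5 and 59 and a change of 0.57 ± 0.25 (SE). In the TBP libraries TBP_E59_GATA had 20335 and TBP_E59_GACA 7025, with non-UV values of 52 and 62 and a change of 1.79 ± 0.16 (SE). For TT the largest change was 1.61 ± 0.28 (SE), between MITF_sebox_59_TAAT at 15144 and MITF_sebox_59_TAAC at 4508. TBP_59_TATT and TBP_59_TGTT, at 14248 and 8821, gave the smallest TT change of the TBP libraries, 0.62 ± 0.13 (SE).

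The base on the 3′ side had a smaller change of the same sign. A exceeded G there by a median of 0.43 with TC, in all 36 pairs, and by 0.45 with TT, in 35 of 36. It did so by 0.25 with CC, in 39 of 44 pairs, and by 0.10 with CT, in 34 of 44. The changes were larger than 2 standard errors in 25 of the 36 TC pairs, 27 of the 36 TT pairs, 16 of the 44 CC pairs and 4 of the 44 CT pairs. The largest was 0.91 ± 0.20 (SE), between TBP_E59_GTAA at 16720 and TBP_E59_GCAA at 9250 on the UV array. The exception among the TT pairs was MITF_sebox_59_TAAC at 4508 against MITF_sebox_59_CAAC at 6292, a change of -0.34 ± 0.26 (SE).

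A pyrimidine before the step makes a further dipyrimidine, so C and T could be read only in longer runs. Among sequences with exactly 2 dipyrimidines that form a run of 3 pyrimidines, CTC had the highest median difference, 9.16 over 98 sequences. TTC followed with 8.51 over 102, CTT with 8.23 over 70, TTT with 8.11 over 74, TCC with 7.82 over 102, CCC with 7.66 over 98, TCT with 7.59 over 74 and CCT with 7.06 over 70. CTC and TCT hold the same steps, TC and CT, in the opposite order. The lowest CTC sequence, at 8.11, lay above the upper quartile of TCT, at 7.87, and the highest TCT sequence was at 8.41. TBP_60_TGCT, the CTC probe nearest its median, had 34388 ± 5056 on the UV array and 60 ± 8.64 on the non-UV array (SD, 10 spots each).

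The runs were set against the sum of their steps, taken as the single-dipyrimidine medians above the reference. CTC exceeded that sum by 0.87 and CTT by 0.59. CCC was at 0.03 from the sum and CCT at -0.13. TTT was at -0.42, TTC at -0.68, TCT at -0.71 and TCC at -0.92. Runs that began with TC were higher with A than with G before them. TCC had 8.24 after A and 7.47 after G, and TCT had 7.92 after A and 7.33 after G. CTC had 9.15 after A and 9.18 after G, and CTT had 8.23 after both. The other runs were higher after A by less than TCC and TCT. After A and after G, CCT had 7.17 and 6.87, TTC 8.61 and 8.44, CCC 7.75 and 7.62, and TTT 8.11 and 8.08. Runs of 3 are on probes of 60 bases and single steps on probes of 59, so these sums mix the lengths. They mix the factors too. The runs include p53 four-base libraries, while p53 single steps come only from the three-position libraries. Without a dipyrimidine the p53 sequences had a median of 7.18, against 6.42 for MITF and 6.37 for TBP. The part of this mix in the distances from the sums was not separated.

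The base before TC was also read over all sequences with exactly 1 TC step, whatever other steps they hold. The median difference was 9.07 with C before it (422 sequences), 8.82 with A (714), 8.64 with T (472) and 7.80 with G (734). At least 4-fold above the reference were 78% with C, 65.8% with A, 55.9% with T and 15.3% with G, beside 37.4% of all sequences. At the ceiling there were 46 sequences with C, 54 with A, 10 with T and 1 with G. These groups differ in their other steps too, and that share was not separated here.

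The top and bottom of the whole range showed the same features. The highest 548 sequences, or 10%, began at 9.66, and 94.9% of them held a TC step and 60.2% an ATC. Over all sequences these shares were 53.6% and 19.5%. The lowest 548 ended at 6.89, and 4.20% of them held a TC step, 4.20% a GTC and 0% an ATC. CT steps were present in 55.8% of the lowest sequences and in 52.1% of all.

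The three-position libraries placed each type at 3 places of 1 backbone, where the 5′ neighbour is A at some places and G at others. The height above the library's own backbone was higher, by mean, at places after A than at places after G in all 24 combinations of library and type. The values did not overlap in 22 of the 24, the exceptions being CC and CT on the opposite strand of the p53 backbone. Each combination holds only 3 probes, 1 on one side and 2 on the other, and the gap could be small. CT on the listed strand of MITF stood at 0.41 after A and at most 0.32 after G. The standard errors of those 2 differences were 0.12 and 0.09. TC stood 2.0 above its backbone after A (1.42 to 2.27, 10 probes) and 0.93 after G (0.50 to 1.13, 8 probes). TT stood at 1.25 after A (0.59 to 1.65) and 0.61 after G (0.41 to 0.998). CC stood at 0.67 after A and 0.27 after G, and CT at 0.20 and 0.02. These libraries include p53, which the pairs above did not. Neighbour and place differ together in them, since the bases on both sides of the step are fixed by the place.

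In the p53 backbone TC at the first place, after A, had 23054 ± 4725 on the UV array, and at the last, also after A, 17344 ± 2776 (SD, 10 spots each). In the middle, after G, it had the 8227 ± 5393 (SD, 10 spots) given above. In the MITF backbone the middle place follows A and the outer places follow G, and TC had 8883 ± 1682, 18788 ± 3099 and 10714 ± 2628 from the first to the last place (SD, 10 spots each). The high place thus lay in the middle of one backbone and at the ends of the other.

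Filling all 3 places with 1 type raised the signal by type. With 3 TC steps the UV values were 39837 ± 3509 in MITF, and 65535 in TBP and p53, with differences of 9.40, at least 9.99 and at least 10.62. With 3 TT steps they were 19724 ± 3817, 48983 ± 9005 and 30372 ± 4090, with differences of 8.29, 9.46 and 9.28. With 3 CC steps they were 10562 ± 1426, 17057 ± 1064 and 13402 ± 1235, with differences of 7.48, 8.01 and 8.56. With 3 CT steps they were 6162 ± 4099, 8869 ± 2475 and 9083 ± 3873, with differences of 6.63, 7.23 and 7.58 (SD of 9 or 10 spots throughout, in the order MITF, TBP, p53). The types did not change their order in any of the 3 backbones. On the opposite strand, 3 TC steps gave 28792 ± 4187 in MITF, 65535 in TBP and 57482 ± 12167 in p53 (SD, 10 spots each).

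Probes with several steps were compared with what their single steps added up to. On the log2 scale, probes with 3 steps of 1 type stood below the sum of the 3 single heights in 17 of 24 cases, by a median of -0.55. In 6 of the 24, however, the sum lay above the highest height the scale could show, so that these had to fall below it. Among the other 18 the median was -0.17, with 11 below the sum. Of the 6 cases, 5 had 3 TC steps, 3 of them at the ceiling, and TC is therefore not set against its log2 sum. TT was below the sum in all 5 cases where the sum could be reached, by a median of -0.85, while CC was at -0.02 and CT at 0.18. Over the 282 probes with 2 placed steps and a reachable sum the median was -0.15 and 186 were below it, and over the 341 with 3 it was -0.33 and 274 were below.

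The excess over the backbone was also added as linear ratios, in place of log2 heights. This came closer for all probes with 2 or with 3 steps, but not for every type. Probes with 2 steps then stood 0.05 from the sum, with 168 of 288 above it, and probes with 3 steps 0.14, with 266 of 384 above it. Where the log2 sum was reachable, the medians were 0.03 over 282 and 0.12 over 341 probes. With 3 steps of 1 type and a reachable log2 sum, TT was at 0.04, CC at 0.21 and CT at 0.17. All 18 such probes together were at 0.16. The 6 probes with 3 TC steps stood 0.46 above the sum of ratios, in 6 of 6, and the ceiling makes this a lower bound for 3 of them. Among the 368 probes with 3 steps below the ceiling the median was 0.13 against the sum of ratios. A probe with 2 placed steps has the length of the backbone, and the single-step probes are 1 base shorter.

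Listed and opposite strand were compared in 9 libraries whose fixed bases on either side of the window are complementary. There, a window and its reverse complement place the same steps, with the same direct neighbours, on one strand or the other, and 720 such pairs were formed. The member with more of its steps on the listed strand was the higher in 637 of 720, by a median of 0.39 and a range of -0.96 to 3.0. The 3.0 belongs to the pair with MITF_ebox_60_GTAA, whose non-UV value of 427 was the highest on that array, and without it the range ended at 2.07 with the same median. The change was larger than 2 standard errors in 442 pairs. The median was 0.41 in the 490 pairs with a TC step and 0.37 in the 230 without. By library it ran from 0.18 in p53_E_mut_60, with 52 of 80 pairs higher on the listed strand, to 0.79 in NP_MITF_ebox_60, with 74 of 80.

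Library medians of the difference ran from 7.50 in the MITF three-position library of the opposite strand, where 46.4% of sequences were raised, to 8.79 in p53_E_mut_60, where 89.5% were. The medians of the p53 libraries were 8.28 to 8.79, against 7.94 to 8.35 in the TBP and 7.50 to 8.28 in the MITF libraries, and 5 of the 6 p53 libraries stood above every TBP and MITF library. The UV array alone gave another order of the factors. Over all sequences of a factor the median UV intensity was 14829 for p53, 16465 for TBP and 15466 for MITF, and the non-UV median was 39.5, 56.5 and 60. Without a dipyrimidine the p53 sequences had a median difference of 7.18, with UV and non-UV medians of 5696 and 39. The TBP sequences had 6.37, with 4543 and 53.5, and the MITF sequences 6.42, with 4934 and 56. The non-UV level thus moves with the p53 values, and so with the raised shares of p53 libraries, and its part in them was not separated.

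The order of the windows was compared between libraries. Over the 210 pairs of the 21 libraries the median Spearman rho over all windows was 0.51, with a range of -0.15 to 0.99. In the 22 pairs of libraries that have the same fixed base on both sides of the window the median rho was 0.97 (0.85 to 0.99). In the 60 pairs that share the base on 1 side it was 0.64 (0.22 to 0.95). In the 128 that share neither it was 0.37 (-0.15 to 0.86). The ranges thus overlapped, and the highest rho among pairs sharing neither base was above the lowest among pairs sharing both. These rho values are descriptions, since the libraries share the arrays and the windows.

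The brightest windows reached the ceiling in many libraries. ATCA did so in 14 of the 21, ATCG and TCGA in 11 each and GATT in 5. The median differences of ATCA, ATCG and TCGA are therefore bounds, at least 10.05, 9.99 and 9.99, with no order among them. Their lowest values, none of them at the ceiling, were 8.995 for ATCA, 8.31 for ATCG and 7.51 for TCGA, and that of GATT was 8.57. TCGA was thus not raised in its lowest library, MITF_ebox_60. The lowest medians were those of GCGC at 6.66 (6.08 to 7.59) and TAGC at 6.70 (5.94 to 7.85), both with 0 libraries at the ceiling. AGCT had the widest measured range, at least 4.75 between libraries, a window chosen for its range after the values were seen. GGCT had a range of at least 4.64. The upper ends of both were at the ceiling, so which window was widest is not known. In MITF_Ex_ebox_60_AGCT, between C and A, it had 4311 ± 806 on the UV array and 66.5 ± 6.73 on the non-UV array (SD, 10 spots each), and its 2 dipyrimidines were both CT. In p53_60_AGCT, between G and C, it was at the ceiling of 65535, with 37.5 ± 6.19 on the non-UV array (SD, 10 spots), and the neighbours had made 2 TC steps beside the 2 CT. The same 4 bases thus gave a difference of 6.02 and of at least 10.77.

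Sequences at the ceiling have no order among them. They were 162 of 2296 MITF, 91 of 2040 TBP and 56 of 1144 p53 sequences, beside 309 of all 5480. Below the ceiling the 5 highest differences were those of p53_60_AATT at 10.72, p53_60_GACT at 10.66, P53_P7_GA&P13_N&P_19_GA at 10.62, P53_P7_GA&P13_GA&P_19_GA at 10.60 and p53_60_AGCC at 10.58. p53_60_AATT had 63416 ± 15875 on the UV array (SD, 9 spots) and 37.5 ± 4.32 on the non-UV array (SD, 10 spots), and its window between G and C reads GAATTC, with TT and TC on both strands. Each of the 5 held at least 1 TC step, and their non-UV values were 35.5 to 38.5, below the 56.5 of the whole array.

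The lowest difference, 4.62, belonged to MITF_ebox_60_GTAA, and this sequence had the highest value on the non-UV array. It had 427 ± 64.8 there (SD, 9 spots) and 10520 ± 1767 on the UV array (SD, 10 spots). MITF_ebox_60_GTCA, at 275.5 ± 84.2 on the non-UV array, and MITF_ebox_60_GTGA, at 146 ± 18.2 (SD, 10 spots each), were next, with differences of 5.72 and 6.27, and no other sequence passed the 105.5 of MITF_Ex_ebox_60_CTTA. MITF_ebox_60_GTTA, of the same family, had 74 ± 3.71 (SD, 10 spots). The window GTAA had 80.5 ± 8.02 in MITF_sebox_60_GTAA and 65 ± 8.28 in NP_MITF_ebox_60_GTAA on the non-UV array (SD, 10 spots each). The 3 high values were thus found in 1 library and not in these relatives.

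Of the 5 lowest differences, the remaining 3 went with low values on the UV array. MITF_Ex_ebox_59_TGTG, with 1 CT, had 2635 ± 3591 on the UV array and 60 ± 2.94 on the non-UV array (SD, 10 spots each), a difference of 5.46 ± 0.28 (SE), and its UV spots spread wider than their median. MITF_Ex_ebox_60_ACAT and TBP_E60_GCGT hold no dipyrimidine and had UV values of 3851 ± 936 and 3238 ± 1168 (SD, 10 spots each), with differences of 5.77 and 5.92.

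Sequences printed under several names gave the technical spread between places on the arrays. For 640 of them the differences under their names spanned a median of 0.11, and 8 spanned more than 0.5. The largest span, 0.84, was that of the p53 backbone, from 6.90 under P53_P7_N&P13_N&P_19_N to 7.74 under p53_60_TGTA. MITF_ebox_60_CGTG and MITF_Ex_ebox_60_GTGC followed with 6.24 and 7.0, and TBP_59_CGTA and TBP_E59_GTAG with 6.28 and 7.0. The backbone heights given for p53 above rest on 40 spots of these names together. The change between A and G before TC, 1.41 at the median, is larger than any of these spans, and that after CT, 0.10, is not larger than their median. The smallest changes of single pairs with A or G before the step, 0.57 for TC and 0.55 for TT, are below the largest span.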

How the data were processed

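Binding of a 6-4PP antibody was measured on 1 UV and 1 non-UV array. The deposited tables hold fluorescence intensity per spot on a linear scale, per the file headers: an intensity without flagged spots, which was used, and a spatially adjusted one. The Cy3 column, which could give the amount of DNA, held 1 at every spot, so nothing was corrected for it. The methods of scanning and image analysis were not stated in the sources used here.

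Spots of 1 sequence were summarised by their median, from at least 7 unflagged spots, and all spots of a sequence printed under several names were pooled. Flags had removed 1305 library spots on the non-UV array and 397 on the UV array. Spot SDs had a median of 0.16 on the log2 scale on the non-UV array and 0.29 on the UV array. The standard error of a difference combines both arrays and was computed from these SDs as for means, not for medians. The local median ran from 7688 to 23625 across the UV array and from 46 to 65 across the non-UV array. Dipyrimidines were counted on both strands outside the shared 10 bases at the 3′ end. Python 3.11.15, numpy 2.4.6 and pandas 2.3.3 were used, and the calculation was tested on simulated data. Pairs and sets printed in several libraries were counted once.

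The members and lists were chosen with earlier results of these data known. Named sequences were the 5 highest below the ceiling and the 5 lowest, the three-position probes with 0 steps, with 1 in the middle and with 3 of 1 type, the extreme pairs, the 3 least repeatable names, and those next to a threshold. Runs of 3 pyrimidines, the base before TC, the sets of 4, placed pairs and the AGCT, GTNA and CTC probes, and leaving out unreachable sums or the GTAA pair, were added after the values were seen. The alternatives took the adjusted intensity, the mean of log2 spots, no ceiling sequences, flagged spots kept, at least 8 spots, the UV array alone, the title's condition, other thresholds, 1 probe length, the listed strand and the whole probe.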

Additional observations from a re-analysis of the deposited data

Results flagged for a closer look

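Signal was also found in spots outside the library. Spots with neither a name nor a sequence had a median of 18060 on the UV array (2705 to 35446, 394 spots, 0 at the ceiling), which is above the library median of 15690, and of 30 on the non-UV array (23 to 47, 388 spots), which is below the library's 56.5. Written as deposited, that UV median is 18059.5. Named control spots, which have no sequence in the tables, had a median of 65535 on the UV array, with 1307 of 1312 at the ceiling, and of 50 on the non-UV array (28 to 323, 1290 spots). What these spots carry is not given in the sources used here, and they entered no comparison.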

How the results depend on the processing

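In all, 694 comparisons with an alternative were made, and 682 moved by less than the spot SD of 0.33 or, for counts, by less than 1.5 times. This SD is that of single spots, and several reported values are smaller than it, such as 0.10 for a single CT. For those, staying within it is a weak check. Reading the condition from the titles turned the median difference to -8.21. The count of raised sequences was 4111 above the 95th percentile of the reference and 2047 at 4-fold. Leaving out the log2 sums above the ceiling, an alternative chosen after seeing the data, moved the 3 steps of 1 type from -0.55 to -0.17 against their sum. The other 9 larger moves concern single sequences or libraries. With the mean of log2 spots, p53_60_AATT came to 10.40, p53_60_GACT to 10.33, P53_P7_GA&P13_N&P_19_GA to 10.26 and p53_60_AGCC to 10.18, and MITF_Ex_ebox_59_TGTG rose to 5.79 with it and to 5.83 with the adjusted intensity. On the UV array alone p53_60, p53_E60 and the p53 three-position library of the opposite strand stood 1.40, 1.25 and 1.52 above the reference, against 1.94, 1.74 and 2.06. Within the spot SD, but by over 1.5 times, the rise per dipyrimidine fell from 0.53 to 0.28 when only the listed strand was counted, and a single CT went from 0.10 to 0.22 on the UV array alone. The ratio sum of placed pairs went from 0.05 to 0.01 there. The cause was not tested.

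Single types had no value on 1 probe length, since they have 59 bases and the reference 60, and the base pairs none on 60 bases. No paired analysis was possible because each condition has 1 array. The number of arrays limits the precision, repeat irradiation was not measured, and the ceiling hides differences among the 309 brightest sequences.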
